A study of Homo sapiens with 2 samples.

Results

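The 10 genes described here belong to the machinery of regulated secretion. They are the granins SCG2, CHGA, CHGB and VGF, the granule proteins SCG3 and SCG5, the synaptotagmins SYT1 and SYT4, the membrane fusion protein SNAP25 and the vesicle protein SYP. They were taken by name, with earlier results of these data known, from 22439 genes that have a named probe on the array. Their probes were all non-control features of the array whose RefSeq transcript accession belongs to one of them, which gave 11 probes of 58201, with 2 for SYT1 and 1 for each other gene. H9 is an established line of human embryonic stem cells. The study moved H9 cells in TeSR-E8 medium, a serum-free medium, from vitronectin to Matrigel, a basement membrane extract, and distinguished substate 1 (strong R-10G staining, hardly any vimentin) from substate 2 (weaker R-10G, strong vimentin, wide spaces between cells). RNA of substate 1 at passage 35 and RNA of substate 2 at passage 50 were each hybridised to 1 single-colour array, so passage and substate cannot be told apart. The study started its Matrigel culture at passage 35. The matrix under each RNA sample and its time on Matrigel were not established here, and may also differ with substate. The cells are 1 line, and the way in which each RNA sample was enriched for its substate is not given in the sources used here. In bulk RNA, fewer cells of a type and less RNA per cell cannot be told apart. With 1 array per substate there was no replicate check of any difference and no p-value is given.

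Neurons and endocrine cells store peptides and amines in dense-core granules and small transmitters in synaptic vesicles, and release them when calcium enters. Granins are acidic secretory proteins that condense in the granule and are cut into peptides. Synaptotagmins are vesicle membrane proteins that sense calcium or modulate fusion, and SNARE proteins such as SNAP25 pull the vesicle and the plasma membrane together. Many genes of this group carry a binding element (RE1) for the repressor REST, which keeps neuronal genes low in cells that are not neurons, and several respond to cyclic AMP through a promoter element (CRE) bound by CREB. Some granins are also expressed in cells that are not neurons.

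Promoter sequence was given for 7 of the 10 genes (250 bases before to 50 after the annotated start, RefSeq, GRCh38.p14), and was not used here for SCG2, CHGB and SNAP25. The promoters of CHGA and VGF are shown because they hold the full CRE, TGACGTCA, which is its own reverse complement and occurred in 1.85% of 35116 promoters of that length. They lie at chr14:92923020-92923149 on the plus strand and chr7:101165570-101165699 on the minus strand, and cover bases -130 to -1 from the start. Capitals mark TGACGTCA and, in VGF, a match to TATAAA on the opposite strand. Only exact matches are marked, so the similar letters tatataag in CHGA stay in lower case.
CHGA: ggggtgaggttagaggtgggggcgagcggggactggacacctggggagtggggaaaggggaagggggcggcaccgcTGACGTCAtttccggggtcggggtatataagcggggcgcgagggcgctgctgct
VGF: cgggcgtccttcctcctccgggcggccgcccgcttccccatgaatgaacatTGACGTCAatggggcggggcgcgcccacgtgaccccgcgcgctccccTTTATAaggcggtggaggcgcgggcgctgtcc
The CRE began at base -54 in CHGA and at base -79 in VGF. The shorter CRE core, TGACG on either strand, was found in 5 of the 7 promoters (CHGA, VGF, SCG3, SCG5 and SYT4) and in 24.6% of all promoters, and in CHGA and VGF these matches lie within the full element.

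The SCG3 sequence is shown because it holds the 9-base left part of the RE1, TTCAGCACC, which occurred on either strand in 0.376% of all promoters and in none of the other 6 promoters of these genes. The stretch lies just after the start (bases 7 to 36), at chr15:51681509-51681538 on the plus strand. Capitals mark the left part and the 6-base right part, GGACAG, which by itself was in 20.5% of promoters. The left part lies at bases 9 to 17 and the right part at bases 26 to 31. Whether parts so spaced form an RE1 was not tested.
SCG3: acTTCAGCACCcacagggcGGACAGcgctc
The E-box CAGGTG that ZEB factors bind was found, on either strand, in the promoters of CHGA, SCG5 and SYT4, and in 20.6% of all promoters. These matches are descriptions of letters in a window of 300 bases.

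All 11 probes were well above background on both arrays, and none was saturated or an outlier, so each gene has a measured difference. Of the 60901 spots that were not controls, the software marked 57.4% (substate 1) and 54.7% (substate 2) as well above background. The intensities below are the processed signals of single spots in arbitrary units, each with the error that the scanner software gives it. They are not scaled between arrays. The difference is the log2 of the signal after the 75th percentile of each array was subtracted, substate 2 minus substate 1. The signals of different probes cannot be set against each other, so no order of abundance among the genes is given.

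**Figure D1:**
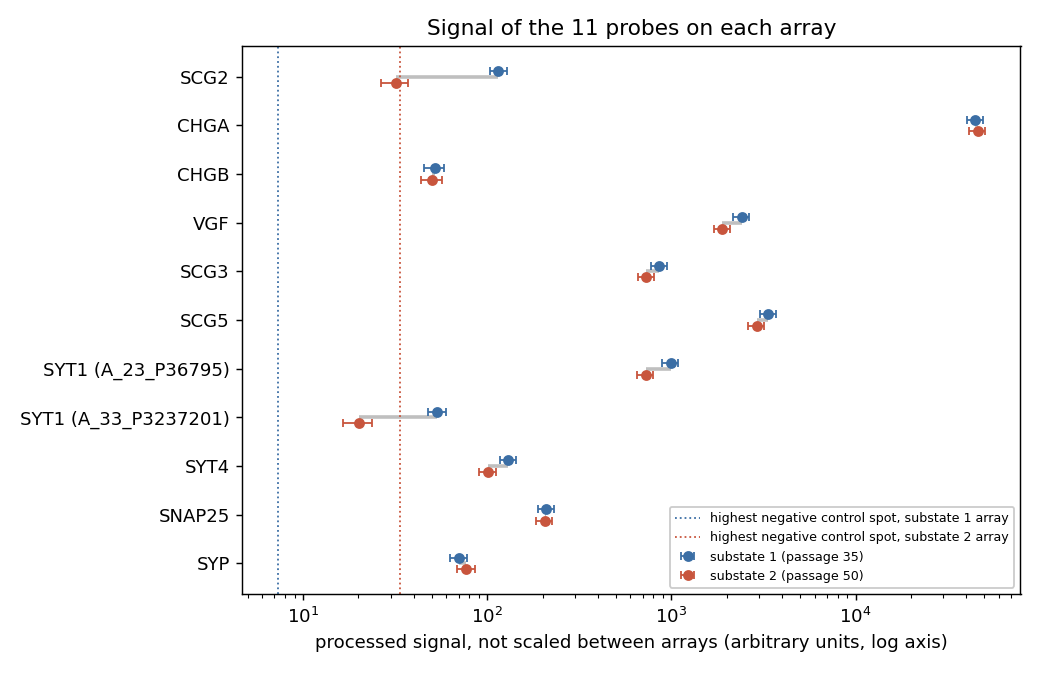
Processed signal of each of the 11 probes (log axis, arbitrary units, not scaled between arrays) on the substate 1 array (blue) and the substate 2 array (red), with the error given by the scanner software as bars and the highest negative control spot of each array as dotted lines. SCG2 and the SYT1 probe A_33_P3237201 have signals in substate 2 of 31.8 and 20.2, left of the highest negative control spot of that array.

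The data showed little difference in 9 of the 11 probes and a lower signal in substate 2 for SCG2 and for 1 of the 2 SYT1 probes. By the Z-score of the study, which divides the distance of a difference from the mean of all probes by their SD, 0 member probes passed the upper limit of 2 and 2 passed the lower limit of -2. Over all 58201 probes 3.03% passed the upper and 3.3% the lower limit, and among the 29883 probes well above background on both arrays, as all the members' probes were, 0.355% and 0.622% did. By 2-fold, 0 member probes were higher and 2 were lower, against 1.55% and 1.67% of the 33166 probes measured on at least 1 array. With 11 probes, 2 lower calls are a count of single spots and not a result about the group. The median difference over the 10 genes was -0.03, with 4 genes above 0 and 6 below, beside a median of 0.08 over the 16001 genes measured on both arrays, of which 59.8% were above 0. Counts of higher and lower genes in the lists below are to be read against that share. It was -0.12 to 0.01 across the scalings, with its sign changing under centring on the median.

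**Figure D2:**
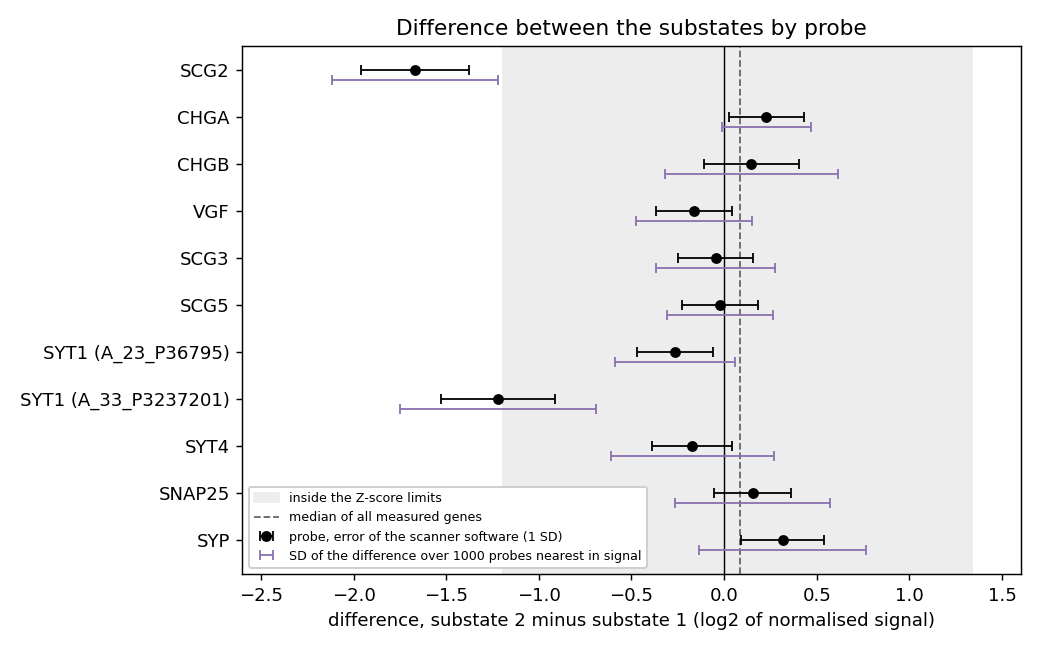
Difference of each probe between the substates (log2 of normalised signal) with the error of the scanner software (black bars, 1 SD) and the SD of the difference over the 1000 probes nearest in mean signal (violet bars). SCG2 at -1.67 and the SYT1 probe A_33_P3237201 at -1.22 lie outside the grey band, which spans the Z-score limits of -1.19 and 1.34, and the other 9 probes lie inside it.

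SCG2 (secretogranin II, chromosome 2) is the precursor of the peptide secretoneurin and a core component of dense-core granules. Its probe read 115.2 ± 12.2 in substate 1 and 31.8 ± 5.42 in substate 2. It was thus low in substate 2, with values further apart than their errors. The difference was -1.67 ± 0.29 on the log2 scale (error of the scanner software), 3.18-fold lower in substate 2, with a Z-score of -2.75. Among the 1000 probes nearest to it in signal the differences had a median of -0.07 and an SD of 0.45, and over all measured probes 33 of 29883 (0.110%, SCG2 included) were as low or lower. The signal in substate 2 was 2.12 times the lowest signal that the software marked as well above background. Of the 308 negative control spots on that array 1 was brighter, at 33.5, and 99% lay at or below 7.27. With normexp background correction, which adds an offset of 50 to every spot, the difference was -0.78, past the Z-score limit and short of 2-fold.

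CHGA (chromogranin A, chromosome 14), a granin used as a marker of neuroendocrine cells and the precursor of several regulatory peptides, had a signal of 44701 ± 4470 in substate 1 and 45971 ± 4597 in substate 2. The RNA was therefore clearly measured in both substates, at 3091 and 3059 times the lowest signal marked as well above background. The difference was 0.23 ± 0.20, or 1.17-fold higher in substate 2. Probes of similar brightness had a median of 0.24, so that CHGA lay at the middle of its neighbours, and quantile normalisation and loess centring brought it to 0.02 to 0.03.

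CHGB (chromogranin B, chromosome 20), another granin of the granule core, gave 51.9 ± 6.26 in substate 1 and 50.5 ± 6.58 in substate 2. VGF (chromosome 7), a nerve growth factor-inducible granin cut into neuropeptides, gave 2413 ± 241.3 and 1892 ± 189.2. The differences after scaling were 0.15 ± 0.26 for CHGB and -0.16 ± 0.20 for VGF, each smaller than its scanner error. Repeated spots of other probes of like brightness gave an SD of the difference of 0.23 for CHGB and 0.07 for VGF. The VGF difference was larger than that SD and the CHGB difference was smaller. CHGB was dim on both arrays, at 3.59 and 3.36 times the lowest signal marked as well above background, so a small difference was not detectable there.

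SCG3 (secretogranin III, chromosome 15), which anchors chromogranin A to the granule membrane, had signals of 858.3 ± 85.9 in substate 1 and 730.1 ± 73.1 in substate 2. SCG5 (the protein 7B2, chromosome 15), a chaperone of the prohormone convertase PCSK2, had signals of 3353 ± 335.3 and 2901 ± 290.1. Both were lower in raw signal on the substate 2 array by about as much as the array as a whole, whose 75th percentile was 275.4 against 313.7. After scaling, SCG3 differed by -0.05 ± 0.20 and SCG5 by -0.02 ± 0.20, the smallest differences of the 10 genes. The sign of SCG5 turned under centring on the median, to 0.02, and under normexp, to 0.14.

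SYT1 (chromosome 12), the calcium sensor for fast transmitter release, was the only member with 2 probes. The probe A_23_P36795 read 993.4 ± 99.4 in substate 1 and 725.4 ± 72.6 in substate 2, a difference of -0.27 ± 0.20. The probe A_33_P3237201 read 53.5 ± 6.09 and 20.2 ± 3.65, a difference of -1.22 ± 0.31, or 2.33-fold lower, with a Z-score of -2.04. Both probes were lower in substate 2, but by unequal amounts. The gap between them, 0.95, was wider than the median gap of 0.15 between the probes of the 3414 genes with 2 measured probes, of which 1.44% had a gap as wide. The probes were designed on different transcript accessions of the gene, and where each lies in the gene is not given in the files. The probe A_33_P3237201 lay at 1.34 times the lowest signal marked as well above background in substate 2. Its Z-score fell short of the limit under quantile normalisation, loess centring and normexp, and its difference with normexp was -0.37. The gene mean over both probes was -0.74.

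SYT4 (chromosome 18), a synaptotagmin found on dense-core granules, gave 130.2 ± 13.5 in substate 1 and 101.4 ± 10.9 in substate 2. SNAP25 (chromosome 20), the plasma membrane SNARE of neuronal exocytosis, gave 209.8 ± 21.3 and 205.2 ± 20.9. SYP (synaptophysin, X chromosome), an abundant synaptic vesicle membrane protein, gave 70.4 ± 7.74 and 77.0 ± 8.41. The differences were -0.17 ± 0.22 for SYT4, 0.16 ± 0.21 for SNAP25 and 0.32 ± 0.22 for SYP. SYP had the largest positive difference of the 10 genes, 1.25-fold higher in substate 2, which was 1.42 times its error, and it lay within the SD of 0.45 of its neighbours in signal.

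By role, the 6 granins and granule proteins had a median difference of -0.03 and the 4 vesicle and fusion genes one of -0.01. Of the 11 probes, 6 differed by less than the scanner error of their difference and 9 by less than 2 such errors. The exceptions were SCG2 and the SYT1 probe A_33_P3237201. These counts depend on the error chosen. The scanner error ran from 0.20 to 0.31 and leaves out cells, RNA and labelling. For bright spots it was close to a fixed share of the signal. Repeated spots of other probes of like brightness gave a smaller SD of the difference for every member probe, from 0.06 to 0.25. Only CHGB, SCG3 and SCG5 differed by less than that SD. It rests on as few as 5 such probes (CHGB in substate 1) and leaves out cells, RNA and labelling too.

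**Figure D3:**
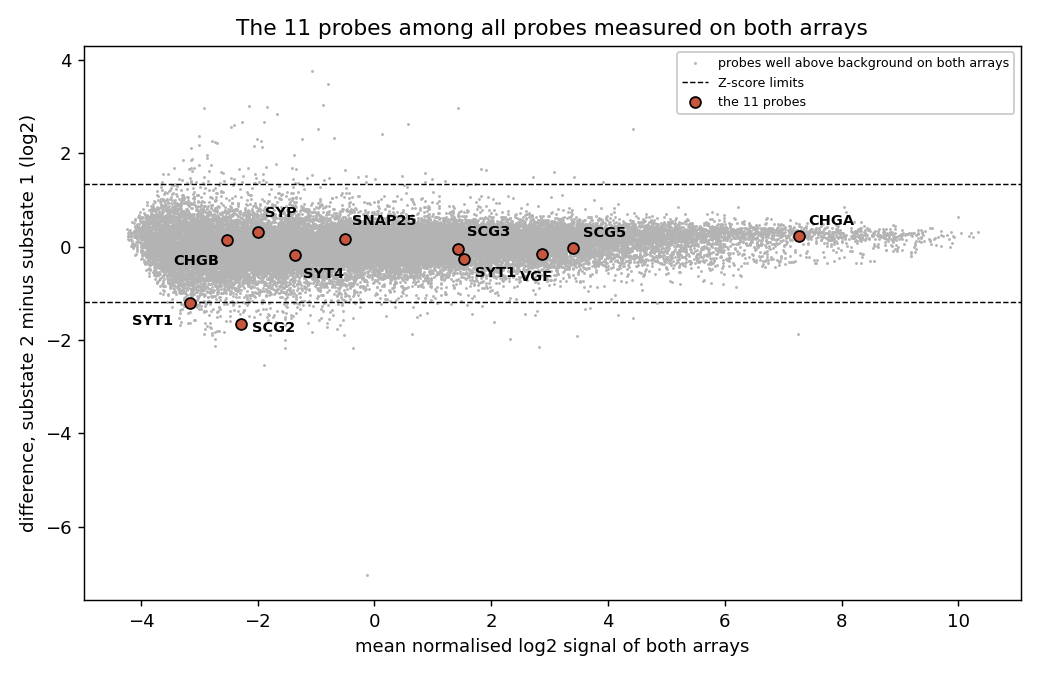
Difference between the substates against mean normalised log2 signal for the probes well above background on both arrays (grey, 29883 probes) and the 11 probes of the 10 genes (red), with the Z-score limits as dashed lines. SCG2 lies below the lower limit, 1 SYT1 probe lies just below it, and the other 9 lie in the body of the cloud.

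Further genes of secretion were described through lists written by role, with earlier results of these data known. The first held 24 genes that process and carry granule cargo, 18 of them measured on both arrays, with a median difference of -0.07 (6 higher, 12 lower) and 0 genes past 2-fold in either direction. The convertase PCSK1, which cleaves prohormones, and the carboxypeptidase CPE, which trims the cut peptides, differed by -0.09 and -0.11. PCSK2, the partner of SCG5, was well above background on neither array. The lowest values were those of the sorting receptor SORL1 (-0.62), HID1 (-0.56), needed for granule formation, and BAIAP3 (-0.51). The highest were RPH3AL (0.76), a Rab effector of exocytosis, CADPS2 (0.43), a granule priming factor, and RAB3D (0.38), a Rab of secretory granules.

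Of 28 genes of the fusion machinery 25 were measured on both arrays, with a median of 0.12 (15 higher, 10 lower) and again 0 past 2-fold. STX1A, the syntaxin that pairs with SNAP25, was lowest at -0.84, followed by STXBP5 (-0.63, 3 probes from -0.69 to -0.58), which binds syntaxin, and DOC2A and NAPB (both -0.54), a calcium-binding priming protein and a cofactor of SNARE disassembly. UNC13D (0.74), a priming factor of immune granules, was highest, followed by STXBP2 (0.49), a syntaxin-binding partner, and NAPA (0.42), an adaptor for SNARE disassembly. The vesicle SNARE VAMP2 had a mean of 0.29 over 3 probes that ranged from 0.05 to 0.59. The median over all measured genes, 0.08, lay between those of these lists.

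The list of other synaptotagmins and related C2-domain proteins had 16 of 23 genes measured on both arrays, a median of -0.26, and 11 lower against 5 higher. SYT7, a slow calcium sensor, read 834.9 in substate 1 against 340.4 in substate 2. This was 2.15-fold lower, and its Z-score of -1.86 was inside the limit. The tethers ESYT3 and ESYT2, which join the endoplasmic reticulum to the plasma membrane, were lower by -0.91 and -0.77. SYTL2, a Rab27 effector, was 2.61-fold higher in substate 2 with a Z-score of 2.08. It was the only gene of the list past 2-fold upwards, followed by SYT11 (0.33) and SYTL1 (0.06). The median of the list stayed between -0.28 and -0.22 under the other scalings of the difference, and was -0.12 with normexp correction.

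Other synaptic vesicle and active zone proteins had 25 of 28 genes measured on both arrays, a median of -0.11 (9 higher, 16 lower) and 0 past 2-fold. SYNPR, a relative of SYP, was lowest at -0.95, followed by the vesicle glycoprotein SV2B (-0.82) and the synapsin SYN3 (-0.51). SNCG (0.73) and the synapsin SYN1 (0.37), which tethers synaptic vesicles, were among the highest. The glutamate transporters SLC17A6 and SLC17A8 were well above background on neither array.

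Among 29 neuropeptides and peptide hormones, the cargo of granules, 16 were measured on both arrays, with a median of -0.03 (7 higher, 9 lower). TAC1, the precursor of substance P, read 100.3 in substate 1 against 33.6 in substate 2. It was 2.62-fold lower at a Z-score of -2.31, and was the only peptide past the limits among those measured on both arrays. Its signal in substate 2 was about that of the brightest negative control spot of that array, at 33.5. GAL (galanin), a peptide expressed in pluripotent cells, was 1.83-fold lower at -0.87, and POMC was lower by -0.75. PDYN (0.72), GHRL (0.56) and NTS (0.35) were highest. In substate 2 alone GRP (27.3) cleared the background, 2.11-fold above its spot in substate 1 (14.7) after scaling. This is the ratio of 2 dim spots, and the substate 2 signal lay below the brightest negative control spot of that array. The peptides VIP, SST, CARTPT, ADCYAP1, CRH, TRH, INS and GAST were well above background on neither array.

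**Figure D4:**
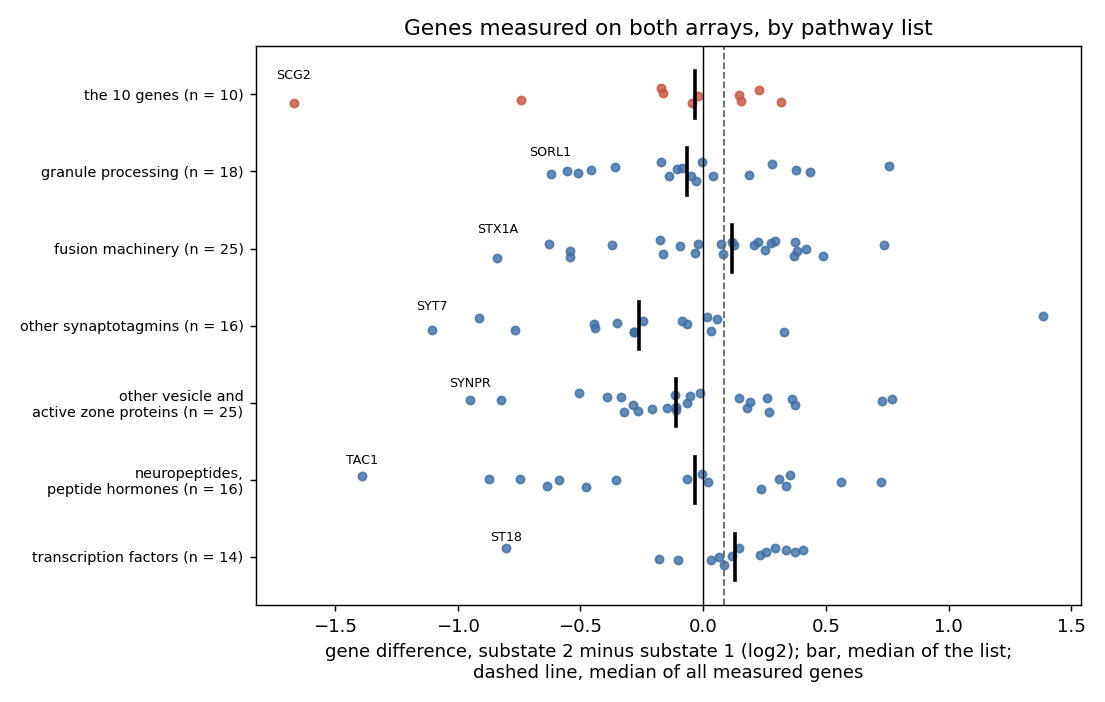
Gene differences between the substates (log2) for the 10 genes (red) and for the genes measured on both arrays in 6 lists of related genes (blue), with the median of each list as a black bar and the median over all measured genes as a dashed line. The lowest gene of each list is named, and the medians run from -0.26 for the other synaptotagmins to 0.13 for the transcription factors.

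The transcription factors that switch such genes on or off had 14 of 24 genes measured on both arrays, a median of 0.13 (11 higher, 3 lower) and 0 past 2-fold. REST had signals of 320.4 in substate 1 and 298.5 in substate 2, a difference of 0.09, and its corepressors RCOR1 and RCOR2 differed by 0.14 and 0.37. CREB1 differed by 0.03 over 3 probes. The lowest were ST18 (-0.80), MYT1 (-0.18) and RCOR3 (-0.10), and the highest SIN3A (0.41), RCOR2 and ATF1 (0.34). INSM1, a factor of endocrine progenitors, was dim and differed by 0.29. The factors NEUROD1, NEUROD4, NEUROG2, INSM2, ISL1, PHOX2A and FEV were among those well above background on neither array.

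Markers of other cell types were read beside the 10 genes. The 7 pluripotent stem cell markers with a probe (of 8 listed) were all well above background on both arrays, as the label of embryonic stem cells requires. The dimmest of their spots, LIN28A, read 7366 in substate 1 and 7330 in substate 2. These markers differed between the substates by 0.07 to 0.42. Of 11 neuron markers, 9 were measured on both arrays, 8 of them higher in substate 2, with a median of 0.29. Their summed normalised signal (each array divided by its 75th percentile) was 51.7 in substate 1 and 65.5 in substate 2. For the pluripotent stem cell markers the same sum also rose, from 1187 to 1411. STMN2 (2.74-fold higher) and MAP2 (2.04-fold higher) were past 2-fold, while ELAVL3 and ELAVL4 were well above background on neither array. Of 10 neuroendocrine markers 4 were measured, 2 higher and 2 lower, at 2.68 and 3.12 in summed normalised signal. Of the 8 neural progenitor markers 5 were measured on both arrays, 4 higher and 1 lower, with a median of 0.38. LHX2 was 5.01-fold and FABP7 2.72-fold higher, NES differed by 0.38, SOX3 by 0.03 and OTX2 by -0.04. SOX1 and HES5 cleared the background in substate 2 alone, at least 1.71-fold and 1.90-fold higher, and PAX6 did so on neither array. The SOX1 and HES5 signals in substate 2 (21.7 and 24.1) lay below the brightest negative control spot of that array, at 33.5. The 3 measured of 6 neural crest markers had a median of 0.06, the 3 of 7 mesenchymal markers one of -0.49, and of 7 mesendoderm markers only FOXA2 was measured, at 0.77. The part of these cell types in the signals of the 10 genes was not tested. As references, VIM was 5.76-fold higher and CDH1 2.78-fold lower in substate 2, and both ZEB1 probes were higher, by 2.41 and 2.67.

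**Figure D5:**
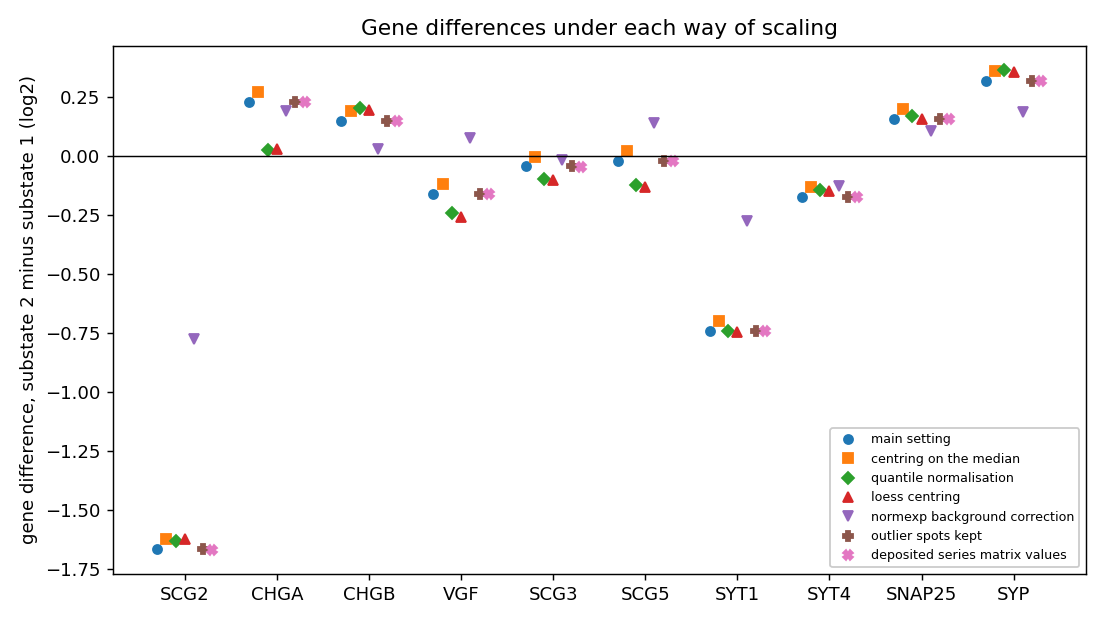
Difference of each of the 10 genes between the substates (log2, SYT1 as the mean of its 2 probes) under 7 ways of computing it, marked by symbol. SCG2 lies between -1.67 and -1.62 in all but the normexp correction, at -0.78, and SYT1 between -0.75 and -0.70 in all but that one, at -0.28.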

How the data were processed

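The authors deposited the scanner output of 2 single-colour Agilent arrays, in arbitrary units. The deposited intensity of a spot was made by Feature Extraction 11.5.1.1 (protocol GE1_1105_Oct12), per the file headers, by subtracting background and removing spatial trends, which can move a single spot. The authors also deposited log2 values (signals under 1 set to 1, 75th percentile shift), from which those computed here differed by 1 constant per array within 0.01 for 100% of probes. The flags of the same files mark spots well above background.

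Here outlier spots were left out, log2 was taken with a floor of 1, repeated spots were averaged by probe, and the 75th percentile of the non-control probes was subtracted (Python 3.11.15, limma 3.58.1 for normexp with an offset of 50). Gene values are means over probes that were unsaturated and well above background on each array. The Z-score limit was 2 and the fold limit 2. A probe measured on 1 array was given a bound from the lowest signal well above background on the other. Where its own signal there was higher, that signal was used instead. Probes were named by RefSeq accession (31104 of 58201). The array design is on hg19 and no coordinates of probes are given. Named genes were the 10 members and, in each list, the 3 highest and 3 lowest genes measured on both arrays and those with a bound of 2-fold or more; others were named for their role after their values were seen, and some list genes are not reported here. The members and lists were chosen with earlier results of these data known. The scaling and the Z-score, and no other step, were tested on simulated data, whose differences were much less spread than those measured here. Intervals from a count are not given, since intensities are not counts, and the number of arrays limits the precision.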

Additional observations from a re-analysis of the deposited data

How the results depend on the processing

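No paired analysis was possible because there was 1 array for each substate. SCG2 kept its direction under every alternative, as did both SYT1 probes. The Z-score calls stayed at 2 (SCG2 and SYT1) under centring on the median, kept outlier spots, the deposited log2 values and the Z-scores over other probes or with another SD, and were 1 (SCG2) under quantile normalisation, loess centring and normexp correction. The 2-fold count moved from 2 to 0 under normexp. Using only probes brighter than the highest negative control spot on both arrays, a setting chosen after seeing the data, left 9 probes and gave 0 calls by either rule, because it leaves out SCG2 and the SYT1 probe A_33_P3237201. The median difference of the 10 genes was -0.11 under quantile normalisation, -0.12 under loess centring and 0.051 under normexp, with the cause not tested. The signs of VGF (0.07 under normexp) and SCG5 were not stable. Finding the members by a gene name column could not be run, as the scanner files used here hold none, and normexp took the median spot signal in place of the mean. Dim spots limit SCG2, CHGB, SYP, SYT4 and the SYT1 probe A_33_P3237201, which lay within a factor of 10 of the lowest signal marked as well above background.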
